A study of Mus musculus with 10 samples.

Results

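Peroxisome proliferator-activated receptors (PPARs) and the genes they induce in heart were examined in the hearts of 6-week-old mice in which Sod2, which encodes the matrix superoxide dismutase of mitochondria, was knocked down only before birth. The set held 10 of the 24537 genes of the deposited count table and was taken by gene symbol from a list: the receptors Ppara and Ppard and the targets Pdk4, Ucp3, Angptl4, Cpt1a, Acot1, Acot2, Plin5 and Mlycd. The rule used gene symbols and no threshold on expression, but the list was drawn up with earlier results of these data known. All 10 were found in the table, all 10 passed the filter of at least 10 counts in total, and all 10 received an adjusted p, as did 9479 of the 17728 genes fitted.

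Both groups carried 1 copy of the doxycycline-responsive transactivator rtTA2 at Rosa26. The 5 iSOD2 mice (Rosa26-rtTA2+/-;TRE-SOD2-shRNA+/-) carried in addition 1 copy of a short hairpin RNA against Sod2 behind a tetracycline response element, placed at Col1a1, and the 5 control mice (Rosa26-rtTA2+/-;TRE-SOD2-shRNA-/-) did not. All were born to wild-type C57BL/6J dams fed doxycycline chow from the vaginal plug until birth, so the controls also saw the drug, and the Rosa26 promoter drives the transactivator in the whole body and not in cardiomyocytes alone. Each genotype held both sexes (3 males and 2 females among the controls, 2 males and 3 females among the iSOD2 mice) and both litters of the study, with 2 mice of each genotype in litter A and 3 in litter B. A mouse is named by its genotype and by the number in their label, which ran from 1 to 10 across both groups.

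PPARs are nuclear receptors that bind fatty acids and act as dimers with retinoid X receptors. The dimer binds DNA at repeats of AGGTCA in 1 orientation with 1 base between them, the element called DR1. In heart, PPAR alpha and PPAR delta keep fat oxidation genes active, and fasting, which raises circulating fatty acids, is known to induce several of their targets. Those targets block glucose oxidation (Pdk4), move fatty acids into mitochondria (Cpt1a), split acyl-CoA esters (Acot1 and Acot2), store fat in droplets (Plin5) or remove the CPT1 inhibitor malonyl-CoA (Mlycd).

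Counts summed over the genes of the table ran from 16448090.5 to 24263085.5 per library. Sod2, the targeted gene, measured 10573 ± 588 normalized counts in controls (SD, n = 5) and 10781 ± 449 in iSOD2 hearts (SD, n = 5) at this age, weeks after the doxycycline was withdrawn, with a log2 fold change of 0.03 and an adjusted p of 0.806 in the DESeq2 Wald test. The 8 ventricular cardiomyocyte markers summed to between 1570000 and 1920000 normalized counts in every heart, and the 6 white adipocyte markers to no more than 25.4. The 11 hepatocyte markers summed to between 241 and 11300 in controls and between 5500 and 22900 in iSOD2 hearts, and all 11 had higher means in iSOD2 hearts, 1 of them past the test. The log2 level of genes rose with exon length in all 5 control libraries and fell with it in all 5 iSOD2 libraries, relative to the mean over libraries. The part of these differences in the values below was examined only through the fits with a hepatocyte covariate and with the length trend removed. In bulk hearts, fewer cells of a type and less RNA per cell cannot be told apart.

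No PPAR receptor or target differed between genotypes by the study's criteria of an adjusted p of at most 0.05 and an absolute log2 fold change above 0.25. Of the 10 genes, 0 were called, where 2.96% of all genes tested were called, and 7 had a lower and 3 a higher mean in iSOD2 hearts. Their median log2 fold change was -0.08, against -0.00793 over all genes with an adjusted p. Adjusted p-values from DESeq2 ran from 0.275 for Ppard to 0.848 for Acot2, and 0 of the 10 had an unadjusted p under 0.05. Of the 17728 genes fitted, 2343 had one. By edgeR's quasi-likelihood test 0 were called as well, 1 (Ppard) had an unadjusted p under 0.05, and no gene of the whole table was called (lowest adjusted p 0.0664, with 2718 genes at an unadjusted p under 0.05). The normalized counts of the genotypes overlapped for all 10 genes, while 5.73% of the genes tested had groups that did not overlap.

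The width of the intervals differed widely between genes. For 7 of the 10 the 95% interval of the log2 fold change lay within 0.5 of 0, and for Pdk4, Ucp3 and Angptl4 it did not. These 3 also varied most from mouse to mouse.

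**Figure D1:**
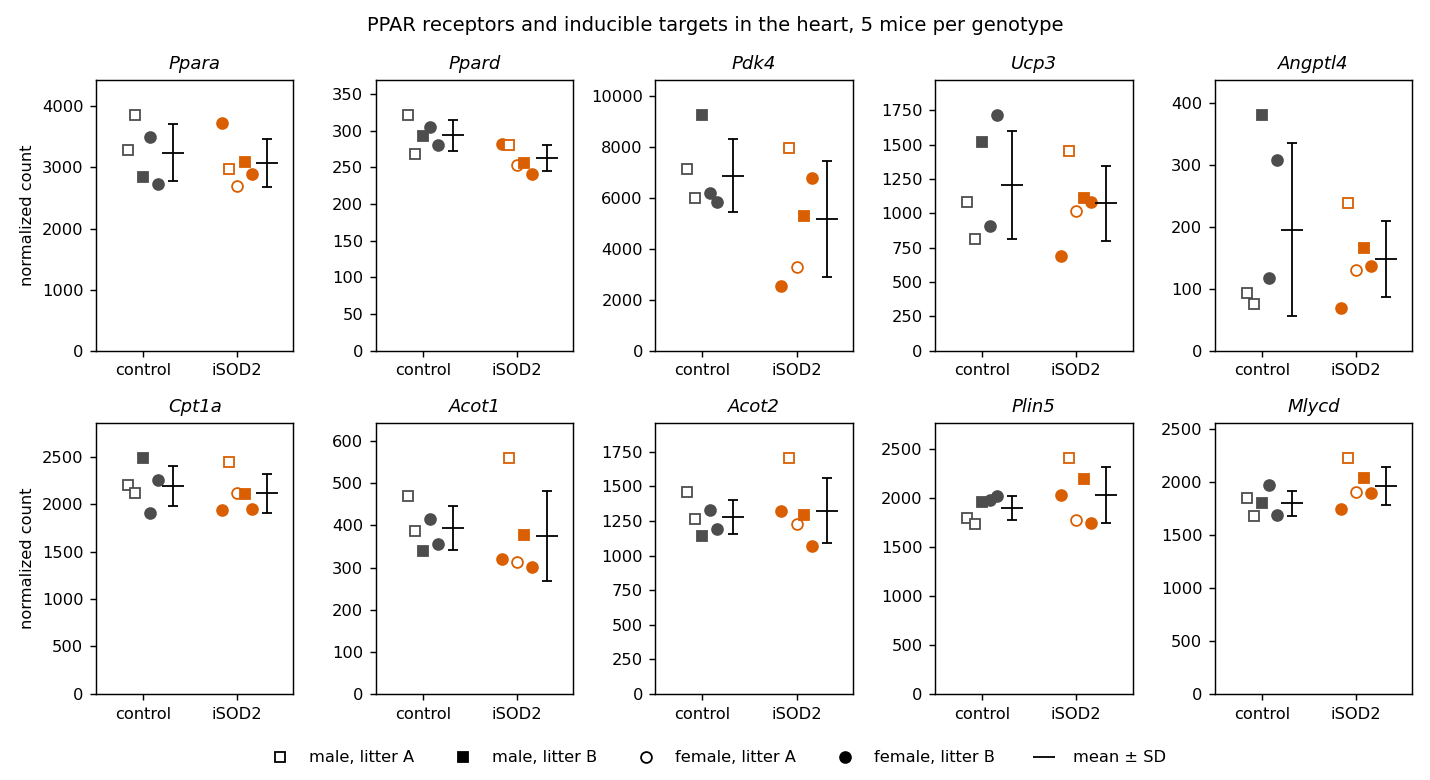
Normalized counts (vertical axes, linear from 0) of the 10 genes in each of 5 control and 5 iSOD2 hearts, with squares for males, circles for females, open symbols for litter A, filled symbols for litter B, and the mean ± SD beside each group. Pdk4 was lowest in iSOD2 5 and iSOD2 8 (2548 and 3262), Angptl4 was highest in control 3 and control 6 (381 and 309), and the genotypes overlapped in every panel.

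Ppara, on chromosome 15 (85735776 to 85806851, mm10, plus strand), encodes PPAR alpha. Of Ppara, Ppard and Pparg it had the highest normalized count per kilobase of exon in these hearts. Its normalized count was 3282 in control 1, 3857 in control 2, 2849 in control 3, 3502 in control 4 and 2724 in control 6. In iSOD2 hearts it was 3725 in iSOD2 5, 2977 in iSOD2 7, 2701 in iSOD2 8, 3091 in iSOD2 9 and 2884 in iSOD2 10. The highest iSOD2 heart, iSOD2 5, lay above 4 of the 5 controls, and the group ranges overlapped almost fully. Between genotypes the log2 fold change was -0.08 (SE 0.105, 95% interval -0.28 to 0.13, DESeq2 adjusted p = 0.739), and it was 0.01 once the length trend was removed.

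Ppard, on chromosome 17 (28232754 to 28301469, plus strand), encodes the more widely expressed PPAR delta. It measured 322, 268, 293, 306 and 281 normalized counts in controls 1, 2, 3, 4 and 6. In iSOD2 5, 7, 8, 9 and 10 it measured 282, 281, 254, 256 and 242. Of the 5 iSOD2 hearts, 3 lay below every control, and the other two lay within the control range. Its log2 fold change of -0.16 (SE 0.0877, interval -0.34 to 0.01) had the lowest adjusted p of the 10 genes, 0.275, and the lowest over all alternatives was 0.254. Pparg, the remaining receptor gene, measured 178 ± 29.5 in controls against 191 ± 28.0 in the iSOD2 group (SD, n = 5 each) with an adjusted p of 0.744.

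On a scale of normalized counts per kilobase of exon, Ppara made up 71.1% ± 2.87 of the 3 PPAR genes together in controls against 70.5% ± 1.90 in the iSOD2 group (SD, n = 5 each). The difference of -0.586 percentage points did not pass the test (exact permutation test over 252 arrangements, two-sided, p = 0.722, adjusted p = 0.722 over the 5 shares compared). Across all 10 hearts the share ran from 67.1% to 75.0%.

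Pdk4, on chromosome 6 (5483351 to 5496278, minus strand), encodes the pyruvate dehydrogenase kinase that fasting induces. Pdk4 had the highest level per kilobase of the 10 genes, at 1748 ± 582 normalized counts per kilobase (SD, n = 10). Its normalized count was 7110.2, 5969.6, 9233, 6181 and 5826 in controls 1, 2, 3, 4 and 6. In iSOD2 5, 7, 8, 9 and 10 it was 2548, 7955, 3262, 5287 and 6764. The lowest values came from a pair of iSOD2 females, iSOD2 5 and iSOD2 8, while iSOD2 7 lay above 4 of the 5 controls. The means of 6864 ± 1416 and 5163 ± 2282 gave the largest negative log2 fold change of the set, -0.41, with a wide interval (SE 0.304, -1.01 to 0.18, DESeq2 adjusted p = 0.474). It ran from -0.62 without iSOD2 7 to -0.24 without iSOD2 5.

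Pdk4 shares its reaction with 3 other kinases. It made up 38.3% ± 4.89 of Pdk1 to Pdk4 per kilobase in controls and 32.2% ± 10.1 in iSOD2 hearts, from 18.9% in iSOD2 5 to 46.3% in control 3. The difference of -6.12 points did not pass the test (exact permutation test, two-sided, p = 0.278, adjusted p = 0.526). Pdk2, the kinase with the highest level per kilobase in these hearts (2351 ± 211, SD, n = 10), measured 5501 ± 498 and 5077 ± 384 normalized counts in control and iSOD2 hearts, with an adjusted p of 0.380.

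Ucp3, on chromosome 7 (100472991 to 100486432, plus strand), encodes a muscle uncoupling protein of the inner mitochondrial membrane that rises with fatty acid supply. Controls 1, 2, 3, 4 and 6 measured 1080.3, 813, 1517, 911 and 1717 normalized counts. The iSOD2 hearts 5, 7, 8, 9 and 10 measured 692, 1458, 1016, 1115 and 1084. Each group held both low and high hearts, and 4 of the 5 iSOD2 values lay inside the control range. The log2 fold change was -0.17 (SE 0.261, interval -0.68 to 0.34, adjusted p = 0.770). Per kilobase, Ucp3 made up 44.5% ± 4.97 of Ucp2 and Ucp3 in controls and 40.9% ± 8.16 in iSOD2 hearts (exact permutation test, two-sided, p = 0.421, adjusted p = 0.526).

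The bases just upstream of the RefSeq transcription start were searched for AGGTCA on both strands, since this is the hexamer that PPAR dimers bind. Of the 10 genes, 9 had an entry in the RefSeq promoter table (GRCm38.p6, the sequence of mm10), and 250 bases upstream of the start were read for each. The hexamer stood in 2 of the 9, Ucp3 and Cpt1a, and in 14.0% of all 32851 windows of that length. Only in Ucp3 among the 9 did a stretch match DR1 with at most 2 mismatches in its 12 fixed letters, from base -51 to base -39, where it takes in the second hexamer. Such a match stood in 3.24% of all windows. These are matches of letters and not measured binding sites. The windows of Ucp3 (chr7:100472741-100472990, plus strand) and Cpt1a (chr19:3323051-3323300, plus strand) are printed 5′ to 3′ because they are the ones that hold the hexamer, which is in capitals. In Ucp3 it starts at -149 and -44 on the strand of the gene. In Cpt1a it lies on the opposite strand, so that its complement TGACCT is read from -94.
Ucp3: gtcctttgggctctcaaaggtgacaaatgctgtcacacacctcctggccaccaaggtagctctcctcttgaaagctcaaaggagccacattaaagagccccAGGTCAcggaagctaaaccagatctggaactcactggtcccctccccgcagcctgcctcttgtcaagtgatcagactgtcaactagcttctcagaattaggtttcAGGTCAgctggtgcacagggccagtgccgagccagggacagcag
Cpt1a: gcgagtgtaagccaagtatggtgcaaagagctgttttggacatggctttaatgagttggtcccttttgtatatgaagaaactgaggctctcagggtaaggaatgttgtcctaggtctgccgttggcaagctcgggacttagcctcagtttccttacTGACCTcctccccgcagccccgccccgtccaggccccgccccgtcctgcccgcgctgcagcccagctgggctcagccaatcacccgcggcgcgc

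Angptl4, on chromosome 17 (33774900 to 33781575, minus strand), encodes a secreted inhibitor of lipoprotein lipase and was the most variable gene of the set. Controls 1, 2, 3, 4 and 6 measured 93.2, 75.8, 381, 118 and 309 normalized counts. The iSOD2 hearts 5, 7, 8, 9 and 10 measured 69.7, 239, 131, 165 and 136. The controls comprised 3 low hearts and a pair of high ones, and 4 of the 5 iSOD2 hearts lay in between. The log2 fold change of -0.40 (SE 0.532) had an interval from -1.45 to 0.64 and an adjusted p of 0.727, the widest interval of the set. Without control 3 the log2 value was -0.01.

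Cpt1a, on chromosome 19 (3323301 to 3385733, plus strand), encodes the liver form of the carnitine palmitoyltransferase that admits long-chain fatty acids to mitochondria. It measured 2202, 2112, 2483, 1908 and 2257 normalized counts in controls 1, 2, 3, 4 and 6, and 1939, 2444, 2120.4, 2108 and 1952 in iSOD2 5, 7, 8, 9 and 10. All 5 iSOD2 values lay inside the control range. The log2 fold change was -0.05 (SE 0.0817, interval -0.21 to 0.11, adjusted p = 0.769). The muscle form, Cpt1b, measured 15586 ± 1448 in controls and 16240 ± 1443 in iSOD2 hearts (adjusted p = 0.723), and Cpt1a was 8.69% ± 1.28 of both forms per kilobase in controls and 8.04% ± 0.438 in iSOD2 hearts (exact permutation test, two-sided, p = 0.381, adjusted p = 0.526).

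Acot1 and Acot2 are neighbours on chromosome 12 (84009502 to 84017669 and 83987861 to 83993875, both plus strand) and encode the cytosolic and the mitochondrial acyl-CoA thioesterase that release free fatty acids from acyl-CoA. Their coding sequences in GRCm38 matched at 1178 of 1236 aligned bases (95.3%), and the longest stretch without a difference ran over 273 bases, from base 887 of the Acot1 coding sequence and base 1010 of that of Acot2. A read of 100 bases taken from the coding sequence would fit both genes for 31.0% of positions in Acot1 and 28.5% in Acot2. How such reads were counted is not given in the sources used here, so the split between the copies is less certain than their sum. The shared stretch is printed 5′ to 3′ because a read inside it cannot be told apart between the copies, with no base in capitals.
Acot1 and Acot2: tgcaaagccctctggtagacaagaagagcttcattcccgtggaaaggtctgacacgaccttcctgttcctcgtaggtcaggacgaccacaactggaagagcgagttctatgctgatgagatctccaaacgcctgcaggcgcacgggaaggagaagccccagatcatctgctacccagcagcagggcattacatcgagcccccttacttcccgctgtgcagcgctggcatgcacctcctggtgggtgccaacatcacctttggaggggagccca

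Acot1 measured 469, 388, 339, 416 and 356 normalized counts in controls 1, 2, 3, 4 and 6. It measured 321, 559, 313, 377 and 301 in iSOD2 5, 7, 8, 9 and 10. The highest heart was iSOD2 7 and the 3 lowest were the iSOD2 females, so the iSOD2 hearts stood at both ends of the order. The log2 fold change was -0.07 (SE 0.159, interval -0.39 to 0.24, adjusted p = 0.840), and its sign turned with the hepatocyte covariate (0.14) and in males alone (0.23).

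Acot2 measured 1461, 1262, 1145, 1328 and 1190.4 normalized counts in controls 1, 2, 3, 4 and 6. It measured 1324, 1703, 1226, 1297 and 1069.8 in iSOD2 5, 7, 8, 9 and 10. Again iSOD2 7 was the highest heart, and iSOD2 10 stood at the bottom. Its log2 fold change was 0.05 (SE 0.110, interval -0.17 to 0.27, adjusted p = 0.848), and without iSOD2 7 it was -0.06.

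Summed, which does not depend on how shared reads were split, Acot1 and Acot2 came to 1671 ± 176 normalized counts in controls and 1698 ± 337 in iSOD2 hearts (exact permutation test, two-sided, p = 0.897). Acot2 was 69.7% ± 0.702 of both per kilobase in controls and 71.7% ± 2.39 in iSOD2 hearts (exact permutation test, two-sided, p = 0.119, adjusted p = 0.526). The share was nearly constant among the controls and ran from 68.3% in iSOD2 7 to 74.5% in iSOD2 5. Without iSOD2 7 the difference was 2.86 points with an adjusted p of 0.0397 by the same exact test.

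**Figure D2:**
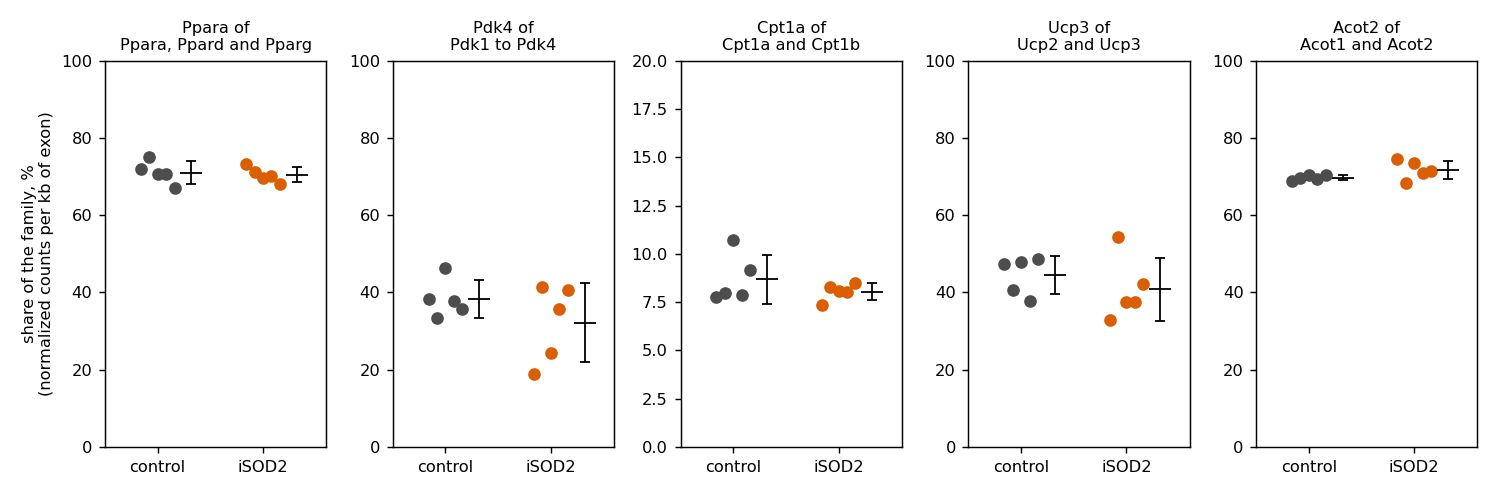
Share of each gene in its family (vertical axes, percent of normalized counts per kilobase of exon) in 5 control and 5 iSOD2 hearts, with the mean ± SD beside each group. The axes run to 100% except that of Cpt1a, which runs to 20%. The widest spread was that of Pdk4 in iSOD2 hearts, from 18.9% in iSOD2 5 upwards, while Acot2 in controls stayed at 69.7% ± 0.702.

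Plin5, on chromosome 17 (56111601 to 56117298, minus strand), encodes the perilipin that coats fat droplets in oxidative tissues and holds them against mitochondria. It measured 1792, 1736, 1962, 1984 and 2016 normalized counts in controls 1, 2, 3, 4 and 6. It measured 2035, 2406, 1772, 2198 and 1743 in iSOD2 5, 7, 8, 9 and 10. The pair of iSOD2 males (7 and 9) and the female iSOD2 5 lay above every control, and iSOD2 8 and iSOD2 10, both females, lay near the lowest controls. Over all mice the log2 fold change was 0.10 (SE 0.0906, interval -0.08 to 0.27, adjusted p = 0.590).

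Mlycd, on chromosome 8 (119394892 to 119411088, plus strand), encodes malonyl-CoA decarboxylase. It measured 1855, 1680, 1801, 1972 and 1689 normalized counts in controls 1, 2, 3, 4 and 6. It measured 1747, 2226, 1903, 2035 and 1899.8 in iSOD2 5, 7, 8, 9 and 10. All 5 iSOD2 hearts exceeded the pair of lowest controls, and iSOD2 7 and iSOD2 9 exceeded every control. Its log2 fold change of 0.12 was the largest positive one of the set (SE 0.0728, interval -0.02 to 0.27, adjusted p = 0.336).

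**Figure D3:**
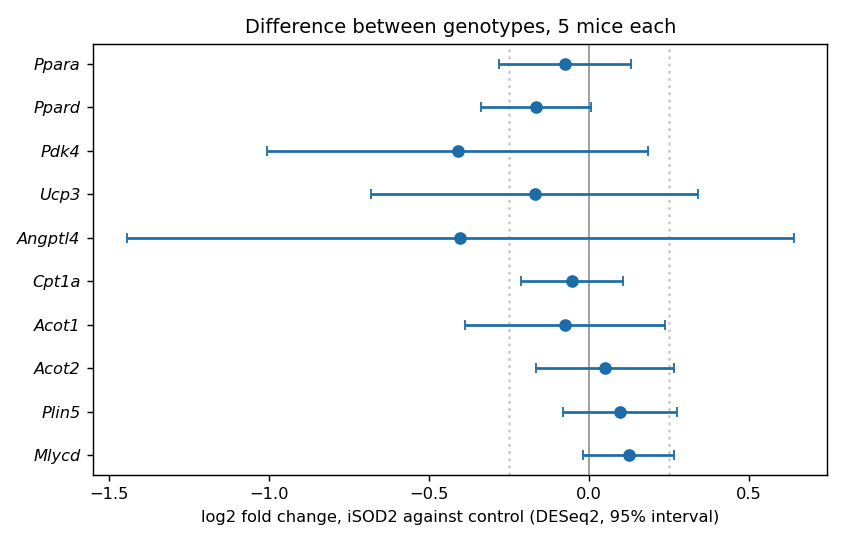
Log2 fold change of iSOD2 against control hearts (horizontal axis) for the 10 genes, with 95% intervals from DESeq2 and dotted lines at the study's threshold of 0.25 on either side of 0. The point estimates run from -0.41 for Pdk4 to 0.12 for Mlycd, and every interval includes 0.

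Ordered by normalized counts per kilobase over all 10 hearts, Pdk4 (1748 ± 582, SD, n = 10), Plin5 (991 ± 110) and Mlycd (899 ± 80.3) came first, and each overlapped the next. Mlycd and Acot2 (593 ± 81.3) did not overlap in any heart. Acot2, Cpt1a (503 ± 46.6), Ucp3 (468 ± 134) and Ppara (425 ± 55.8) again overlapped from each to the next. Ppara did not overlap Acot1 (247 ± 51.6), which was followed by Angptl4 (90.6 ± 55.2) and Ppard (86.8 ± 7.65), each overlapping the one before. Pdk4 spread over more than its own place, and in iSOD2 5 (741 per kilobase) it fell below the highest Acot2 heart (777). Angptl4 spread from 36.8 to 201 per kilobase around the whole range of Ppard (75.4 to 100.2), so these genes had no fixed order.

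The targets differed in how much they varied from heart to heart. The coefficient of variation over the 10 mice was 61.0% for Angptl4, 33.3% for Pdk4 and 28.6% for Ucp3, which placed them at the 99.3, 98.0 and 97.2 percentile of 12149 genes (those whose normalized count averaged 50 or more). The highest heart exceeded the lowest 5.46-fold for Angptl4, 3.62-fold for Pdk4 and 2.48-fold for Ucp3. Acot1 followed at 20.9%, the 93.3 percentile. The other 6 lay between 8.81% (Ppard) and 13.7% (Acot2), at percentiles from 46.9 to 77.7. Angptl4 also had the fewest counts of the set (a mean of 172), but Ppard, the next lowest at 278, was the least variable.

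Ucp3 and Angptl4, both among the most variable targets, varied together. Over the 10 hearts, Pearson's r of log2 normalized counts was 0.94 between Ucp3 and Angptl4 and Spearman's rho was 0.95, each with a permutation p of 0.00011 and an adjusted p of 0.00495 over the 45 pairs compared. Control 3, control 6 and iSOD2 7 were the 3 highest hearts for both genes, and iSOD2 5 and control 2 the lowest pair. Without iSOD2 5 and control 6, the hearts farthest from the median of Ucp3, r was 0.92. It was 0.94 for deviations from genotype means, 0.94 from sex means and 0.95 from litter means, and 0.97 within the 6 mice of litter B. Litter A held 4 mice, too few for a value.

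Acot1 and Acot2 were the only other pair past an adjusted p of 0.05. Pearson's r was 0.90 (permutation p = 0.0005, adjusted p = 0.0112), Spearman's rho was 0.81 (permutation p = 0.00715, adjusted p = 0.161), and r fell to 0.61 without control 1 and iSOD2 7. It was 0.66 within litter B. The genes share stretches of sequence, as described above, whose part in r was not tested.

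Ppara ran opposite to Ucp3 and Angptl4, though neither relation passed the correction. Its r was -0.79 with Ucp3 (permutation p = 0.00746, adjusted p = 0.1004; rho -0.70, adjusted p = 0.278) and -0.77 with Angptl4 (permutation p = 0.0112, adjusted p = 0.1004; rho -0.75, adjusted p = 0.268). Control 2 and iSOD2 5 had the highest Ppara and the lowest Ucp3 and Angptl4. Without both hearts r was -0.57 and -0.56. Within litter B it was -0.93 and -0.86, and deviations from genotype means gave -0.86 and -0.82.

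Cpt1a followed the same hearts as Ucp3 (r = 0.77, permutation p = 0.00914, adjusted p = 0.1004; rho 0.72, adjusted p = 0.268) and Angptl4 (r = 0.73, permutation p = 0.0169, adjusted p = 0.127; rho 0.66, adjusted p = 0.332). Without the hearts farthest from the median, r was 0.80 and 0.55, and within litter B it was 0.82 and 0.92. Pdk4 had r = 0.63 with Ucp3 (permutation p = 0.0484, adjusted p = 0.311; rho 0.48, adjusted p = 0.573), r = 0.41 without iSOD2 5 and iSOD2 8, and 0.73 within litter B. In all, 36 of the 45 pairs had a positive r, with a median of 0.27, and 7 had an unadjusted p under 0.05. All pairs come from the same 10 libraries and so share their depth and scaling.

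**Figure D4:**
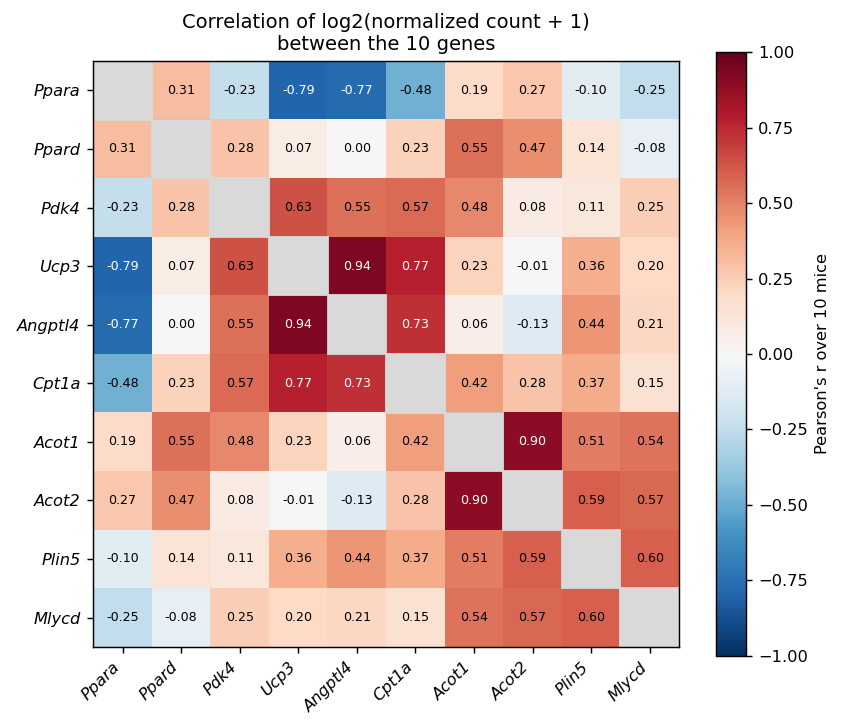
Pearson's r of log2(normalized count + 1) over 10 mice for each pair of genes, red for positive and blue for negative values. Ucp3, Angptl4 and Cpt1a form a block with r from 0.73 to 0.94, Acot1 and Acot2 a second with r = 0.90, and Ppara is negative to the first block (-0.48 to -0.79).

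**Figure D5:**
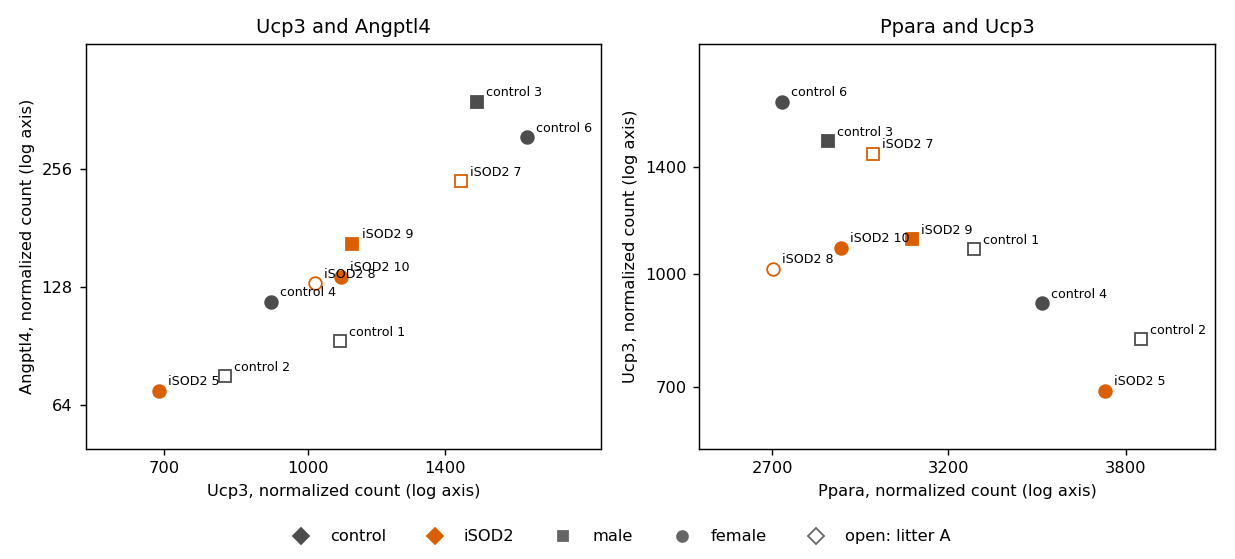
Normalized counts on log axes in each of the 10 hearts, Angptl4 against Ucp3 on the left and Ucp3 against Ppara on the right, colored by genotype, with squares for males, circles for females and open symbols for litter A. Control 3, control 6 and iSOD2 7 are highest for Ucp3 and Angptl4, and hearts of both genotypes lie along the same band (r = 0.94 and -0.79).

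Out of 12148 genes averaging 50 or more normalized counts, the 5 whose log2 levels followed Ppara most closely over the 10 hearts were Trib1 (r = 0.92), Srp54a (0.92), Adamtsl4 (0.91), Pacs2 (0.91) and Micall1 (0.91). For Pdk4 they were Neurl3 (0.93), Il10ra (0.91), Fam189a2 (0.91), Agpat9 (0.91) and Stk4 (0.89). These are the highest of many values and are given as a description. None of the 10 PPAR genes was among them.

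Litter and sex were compared with genotype in the model, since both stand in the labels. Between litters 0 of the 10 genes were called by DESeq2 and 0 by edgeR, where 3.5% of all genes tested were called by DESeq2, and 2 had an unadjusted p under 0.05 by either tool. Of the 17728 genes fitted, 2297 had one by DESeq2 and 2852 by edgeR. The 2 members were the thioesterases. Acot1 averaged 433 ± 106 in litter A (SD, n = 4) and 352 ± 41.0 in litter B (SD, n = 6), a log2 fold change of -0.30 (adjusted p = 0.266), and Acot2 averaged 1413 ± 219 and 1226 ± 107 (-0.20, adjusted p = 0.280). Without iSOD2 8, the lowest litter A heart for both, Acot1 was called at -0.43 with a DESeq2 adjusted p of 0.0260, where 3.83% of all genes tested were called. Angptl4 had the largest difference, 0.45, with an adjusted p of 0.813. The other 7 genes had unadjusted p-values no lower than 0.331. Litter A held mostly males and litter B mostly females, so litter and sex were partly confounded. With sex added to the DESeq2 model of litter, 0 of the 10 had an unadjusted p under 0.05 (lowest 0.115), and Acot1 stood at -0.19.

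Between sexes all 10 genes had a lower mean in females, and 0 were called by DESeq2 or edgeR, where DESeq2 called 0.483% of all genes tested. Acot1 averaged 427 ± 88.2 in males and 341 ± 46.2 in females (SD, n = 5 each, log2 fold change -0.32, adjusted p = 0.567) and Cpt1a 2270 ± 181 and 2035 ± 149 (-0.15, adjusted p = 0.645). These were the 2 genes with an unadjusted p under 0.05 by DESeq2, where 1170 of the 17728 genes fitted had one. With litter added to the DESeq2 model of sex, 0 of the 10 had one (lowest 0.0652). Pdk4 had the largest difference, from 7111 ± 1569 in males to 4916 ± 1883 in females (-0.48, adjusted p = 0.859). Males and females overlapped for each of these 3 genes.

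The difference between genotypes was itself compared between sexes and between litters through an interaction term. For sex, 0 of the 10 genes were called, as were 0% of all genes tested, and 2 had an unadjusted p under 0.05 by DESeq2 and 2 by edgeR. Of the 17728 genes fitted, 210 had one by DESeq2 and 487 by edgeR. Plin5 went from 1830.1 in control males to 2302 in iSOD2 males and from 1999.9 in control females to 1850.1 in iSOD2 females. Its interaction was -0.44 on the log2 scale (SE 0.136, DESeq2 adjusted p = 0.99995, the lowest unadjusted p of the set at 0.00117). In the 5 males alone Plin5 had a log2 fold change of 0.33 and an adjusted p of 0.0227 (2.98% of all genes tested in males were called), and in the 5 females alone it was -0.11. Since the interaction did not pass the correction, the sexes are not shown to differ. For Acot1 the interaction was -0.53 (unadjusted p = 0.0387).

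For litter, 0 of the 10 interactions were called, against 0.00564% of all genes tested, and 2 had an unadjusted p under 0.05 by DESeq2 and 3 by edgeR. Of the 17728 genes fitted, 317 had one by DESeq2 and 676 by edgeR. Angptl4 was higher in the iSOD2 hearts of litter A (means 84.5 in control and 185 in iSOD2 hearts, n = 2 each) and lower in those of litter B (269 and 124, n = 3 each). The interaction was -2.24 on the log2 scale (SE 0.840, unadjusted p = 0.00755, DESeq2 adjusted p = 0.99998). Ppara showed the opposite order, from 3569 to 2839 in litter A and from 3025 to 3233 in litter B (interaction 0.43, SE 0.175, unadjusted p = 0.0152). None passed the correction.

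Genes that act with PPARs were read from a second list of 18 partners and cofactors. Of these, 13 had lower and 5 higher means in iSOD2 hearts, and the median log2 fold change was -0.05. Over all 9479 genes with an adjusted p, 4991 had lower and 4488 higher means. Ppargc1b, which encodes the coactivator PGC-1 beta, measured 1843 ± 218 normalized counts in control and 1495 ± 213 in iSOD2 hearts (SD, n = 5 each, log2 fold change -0.30, DESeq2 adjusted p = 0.0540), and Lpin1, a lipin that coactivates PPAR alpha, measured 6148 ± 589 and 5198 ± 582 (-0.24, adjusted p = 0.0657). With litter as a covariate Ppargc1b was called (-0.30, DESeq2 adjusted p = 0.0192), and it was also called with sex and litter together, with TMM size factors, and without iSOD2 5, control 6 or iSOD2 7. Lpin1 was called without control 4 (-0.28, adjusted p = 0.0335), without iSOD2 5 (-0.30, adjusted p = 0.0155) and in litter A alone (-0.37, adjusted p = 0.0149). Neither gene was called by edgeR (adjusted p = 0.166 for Ppargc1b and 0.184 for Lpin1). With the length trend removed Ppargc1b stood at -0.27 (DESeq2 adjusted p = 0.158) and Lpin1 at -0.17 (adjusted p = 0.337). With the hepatocyte covariate they stood at -0.23 (DESeq2 adjusted p = 0.364) and -0.26 (adjusted p = 0.194).

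Another list held 45 other PPAR-responsive genes of fat metabolism, of which 43 were fitted and 36 received an adjusted p. Of the genes fitted, 32 had higher and 11 lower means in iSOD2 hearts, and the median log2 fold change was 0.05. These counts take in the genes with few counts and no adjusted p. Over all 9479 genes with an adjusted p, 4488 had higher and 4991 lower means. Ech1, an auxiliary enzyme of beta oxidation, measured 14409 ± 1231 and 16743 ± 1646 (0.22, adjusted p = 0.0731), and Fabp4, a fatty acid carrier of endothelium and fat, 3216 ± 844 and 4040.1 ± 472 (0.33, adjusted p = 0.309). With litter as a covariate Fabp4 was called (0.34, DESeq2 adjusted p = 0.0409), as it was with sex and litter together (0.30, adjusted p = 0.0289) and without control 4 (0.44, adjusted p = 0.0215). It was called in males alone (0.55) and in litter A alone (0.49) and stood at 0.02 in females. Ech1 was called with the hepatocyte covariate (0.30, adjusted p = 0.0397) and without iSOD2 10 (0.26, adjusted p = 0.0377). Neither gene was called by edgeR (adjusted p = 0.310 for Fabp4 and 0.198 for Ech1). With the length trend removed Fabp4 stood at 0.18 (DESeq2 adjusted p = 0.671) and Ech1 at 0.11 (adjusted p = 0.626). With the hepatocyte covariate Fabp4 stood at 0.24 (DESeq2 adjusted p = 0.685).

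Of 17 paralogs of the targets, 16 were fitted and 0 were called, with a median of 0.04. Pdk4 and Angptl4 also respond to glucocorticoids. Of 12 glucocorticoid-responsive genes, 9 received an adjusted p and 0 were called, where 2.96% of all genes tested were called. Means were higher in iSOD2 hearts for 10 of the 12, and for 4488 of all 9479 genes with an adjusted p. The median log2 fold change of the 12 was 0.31. The largest were Ddit4 (0.62, SE 0.364, DESeq2 adjusted p = 0.337), Tsc22d3 (0.44, SE 0.191, adjusted p = 0.158) and Fkbp5 (0.40, SE 0.390, adjusted p = 0.613). Pdk4 and Angptl4 were at -0.41 (SE 0.304) and -0.40 (SE 0.532). A part of glucocorticoids in these values was not tested.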

How the data were processed

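Heart RNA from 10 mice was sequenced as stranded total RNA. Per the labels and the study's methods, the authors aligned reads to mm10 (GRCm38) with STAR and counted them per gene with HOMER. The deposited table holds expected counts, whole or split to fractions of a read and not normalized, beside an exon length; no read was counted here. The depth ranged from 16448090.5 to 24263085.5 counts, and intervals cover the spread between mice. Counts were rounded and genes with at least 10 counts in total kept. DESeq2 1.42.0 (R 4.3.3) gave size factors, Wald tests and Benjamini-Hochberg adjusted p-values over the whole table, with calls at an adjusted p of at most 0.05 and an absolute log2 fold change above 0.25. edgeR 4.0.16 (with limma 3.58.1) was the alternative. Shares used exact permutation tests over 252 arrangements (smallest p 0.00794), and correlations 100000 permutations (numpy 2.4.6, scipy 1.17.1, pandas 2.3.3). Litter and sex fits had genotype as a covariate. The length trend was removed by lowess offsets (span 0.3). The alternatives left out each mouse in turn, used 1 litter or sex, added covariates, or changed the filter, scaling or fold threshold. Scripts were tested on simulated data. The 10 genes and all lists were chosen with earlier results of these data known. Named beside the 10 genes were the paralogs of the shares, called genes and up to 3 genes of largest change per list among those with a mean count of at least 50, and the 5 genes most like Ppara and Pdk4; genes of marker lists stand as sums. Some results on listed genes are not reported here. Motif positions count back from -1 at the base before the start.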

Additional observations from a re-analysis of the deposited data

How the results depend on the processing

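No PPAR receptor or target was called between genotypes with either tool, with TMM size factors, with other count filters or fold thresholds, with sex, litter or both as covariates, with the hepatocyte covariate, with the length trend removed, without any 1 mouse, or within litter A, litter B or females. In males alone 1 was called, Plin5 at 0.33 (adjusted p = 0.0227), where 2.98% of all genes tested were called. Log2 fold changes that turned sign were Ppara at 0.012 with the length trend removed and 0.095 in litter B, Ucp3 at 0.39 in litter A and 0.18 in males, Angptl4 at 1.11 in litter A and 0.14 in males, Cpt1a at 0.081 in litter A and 0.0064 in males, Acot1 at 0.023 when summed with Acot2, 0.14 with the hepatocyte covariate, 0.027 in litter A and 0.23 in males, and, in females, Acot2 at -0.063 and Plin5 at -0.11. Leaving out 1 mouse at a time moved Acot2 from -0.057 (without iSOD2 7) to 0.12, and the other 9 kept their sign. The causes were not tested.

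Between litters, leaving out 1 mouse called 0 to 1 of the 10 genes. Leaving out 1 mouse moved the share difference of Ppara from -1.59 to 0.39 points and that of Acot2 from 1.32 to 2.86, past the threshold only without iSOD2 7, and the difference of summed Acot1 and Acot2 from -113.9 to 109 normalized counts. The Ppara share difference turned to 0.777 points with the length trend removed, 1.08 in litter B and 1.51 in females. That of Cpt1a was 0.324 in litter A, that of Ucp3 2.01 in litter A and 0.565 in males, and that of Acot2 -0.0653 in males. The summed difference was -13.8 with the length trend removed, -28.3 in litter B and -127 in females.

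Correlated pairs past the adjusted threshold numbered 4 with the length trend removed, 6 for deviations from sex means and 5 from litter means, and 1 to 4 when 1 mouse was left out. Ucp3 with Angptl4 stayed between 0.92 and 0.97 without any 1 mouse. Acot1 with Acot2 stayed between 0.78 and 0.96 but lost its call without control 1, iSOD2 7 or iSOD2 10. Over the whole table, 281 genes were called by DESeq2, 133 with the length trend removed, 26 at an absolute log2 fold change above 0.5, 577 without a fold threshold, and 166 to 488 when 1 mouse was left out. By edgeR 0 were called and 2718 had an unadjusted p under 0.05. No paired analysis was possible because the mouse numbers run once across both genotypes and pair no samples. With 5 mice per genotype, the intervals of Pdk4, Ucp3 and Angptl4 reached beyond 0.5 on the log2 scale. No receptor or target had a mouse whose value lay apart from its group by Dixon's test over 32 groups.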
